A study of Homo sapiens with 18 samples.

Results

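The 40 genes described here carry out protein folding and secretion at the endoplasmic reticulum (ER). They were taken as a list of symbols, and a probe set belonged to a gene when its name in the authors' tables was that symbol alone. Of the 40 genes, 39 had a probe set of their own, with 86 probe sets among 54613 tested and 39 genes among 19141 named ones. SPCS2, a signal peptidase subunit, had only 2 probe sets that it shared with another symbol, and it was not analyzed. Each gene was represented by its probe set with the highest mean over the 18 arrays, and levels are log2 values.

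RNA was measured in human tumor cells grown in mouse mammary ducts, the mouse intraductal (MIND) model, in female immunodeficient NSG mice. SUM225 cells lack estrogen and progesterone receptors and are HER2-positive, whereas DCIS.COM cells lack both receptors and HER2 and form basal-like lesions, and each tumor type was represented by 1 cell line. There were 6 groups of 3 arrays, SUM225 at 2, 6 and 10 weeks after injection and DCIS.COM at 2, 6 and 10 weeks, and each array held EpCAM-positive cells sorted magnetically from 5 mice. The arrays therefore show the sorted population as a whole, in which fewer cells of a type and less RNA per cell cannot be told apart.

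Proteins bound for the cell surface or for export enter the ER through the SEC61 channel, lose their signal peptide and fold with the help of chaperones and disulfide isomerases before COPII vesicles carry them onward. When unfolded proteins accumulate, the membrane sensors ERN1 (IRE1), ATF6 and EIF2AK3 (PERK) start the unfolded protein response, in which ERN1 cuts the XBP1 messenger so that it encodes an active transcription factor. In the mammary gland this machinery serves milk secretion, and XBP1 and AGR2 are widely expressed in luminal breast cells.

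Because many of these genes answer to the same stress factors, their promoters were searched for the ER stress element, which ATF6 and XBP1 are known to bind. RefSeq promoter windows of GRCh38.p14, covering 250 bases before and 50 after each start, were given for 38 of the 40 genes. The element, CCAAT and CCACG spaced 9 bases apart and read on both strands, stood in the windows of 8 of the 38 genes (21.1%), against 0.0916% of all 27305 genes with a window. The related ERSE-II, ATTGG and CCACG spaced 1 base apart, stood in 3 of the 38 (7.89%), against 0.0696% of all genes, and the XBP1 motif TGACGTGG in SSR3 and HYOU1 (5.26%), against 0.927% of all genes. In HYOU1 this motif overlapped an ERSE-II. 1 copy is listed for each of the 11 genes with an element, since their levels are compared here, with the fixed letters of each element in capitals and the spacer in lower case, 5′ to 3′ on the strand that carries it.
XBP1: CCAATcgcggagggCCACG
HSPA5: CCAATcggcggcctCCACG
CRELD2: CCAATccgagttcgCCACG
HSP90B1: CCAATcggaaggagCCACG
CALR: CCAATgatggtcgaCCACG
CANX: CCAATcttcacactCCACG
PDIA6: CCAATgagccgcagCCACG
ERO1LB: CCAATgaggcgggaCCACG
HERPUD1: ATTGGgCCACG
SDF2L1: ATTGGtCCACG
HYOU1: ATTGGaCCACG

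The 250 bases before the start are printed for XBP1, HSPA5 and HERPUD1, because all 3 carry an element close to the start and yet their levels differed between the lines in unlike ways. XBP1 lies on chromosome 22 and the stretch covers chr22:28800570-28800819 on the minus strand. HSPA5 lies on chromosome 9 and the stretch covers chr9:125241344-125241593, also on the minus strand. HERPUD1 lies on chromosome 16 and the stretch covers chr16:56931892-56932141 on the plus strand. Capitals mark the fixed letters of the ERSE in XBP1, whose first base lies 52 bases before the start, of the ERSE in HSPA5, 66 bases before it, and of the ERSE-II in HERPUD1, 117 bases before it. A match of letters is no evidence that a factor binds there.
XBP1: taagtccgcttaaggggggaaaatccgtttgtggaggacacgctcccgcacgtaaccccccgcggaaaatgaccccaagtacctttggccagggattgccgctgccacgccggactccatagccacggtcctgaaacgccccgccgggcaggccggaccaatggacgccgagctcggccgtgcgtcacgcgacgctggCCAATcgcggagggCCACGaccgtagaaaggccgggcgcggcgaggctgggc
HSPA5: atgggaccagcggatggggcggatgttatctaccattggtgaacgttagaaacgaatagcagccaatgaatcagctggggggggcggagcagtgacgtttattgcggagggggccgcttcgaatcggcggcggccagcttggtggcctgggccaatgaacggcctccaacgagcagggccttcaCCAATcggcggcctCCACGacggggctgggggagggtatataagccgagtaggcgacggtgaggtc
HERPUD1: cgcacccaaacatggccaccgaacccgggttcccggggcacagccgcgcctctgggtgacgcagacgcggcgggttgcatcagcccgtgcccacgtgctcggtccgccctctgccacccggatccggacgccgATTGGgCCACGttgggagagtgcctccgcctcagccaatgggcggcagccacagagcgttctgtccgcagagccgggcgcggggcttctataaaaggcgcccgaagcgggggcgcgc

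The sorted cells expressed epithelial markers, but the 2-week SUM225 arrays did not resemble each other. Their pairwise correlations over all probe sets were 0.76 to 0.926, against 0.966 or more in every other group. EPCAM, the sorting antigen, stood at 12.73, 11.72 and 8.59 in the 2-week SUM225 arrays and between 12.11 and 13.04 in the other 15 arrays. The summed level of 15 epithelial markers ranged from 12.03 to 15.29 at 2 weeks in SUM225 and from 14.88 to 15.71 elsewhere (log2 of the sum). That of 15 leukocyte markers ranged from 10.04 to 10.99 at 2 weeks in SUM225 and from 9.44 to 10.43 elsewhere, with the leukocyte marker PTPRC between 3.94 and 5.42 on all arrays. Sums of fibroblast, plasma cell and adipocyte markers reached 11.45, 10.03 and 9.33 in 2-week SUM225, and at most 10.56, 9.45 and 8.84 elsewhere. Erythroid markers reached 10.27 there and 10.22 elsewhere, and endothelial markers 9.85 and 10.19. Each comparison with 2-week SUM225 is therefore given also with its replicate 1 alone. That leaves 1 array in the 2-week SUM225 group, so the spread then comes from the other group only, the lone array is assumed to vary like it, and calls made this way say nothing of the spread at 2 weeks. RMA values give no detection call, so low levels carry no statement of absence. The array is a human one and the host tissue was mouse. Marker lists of leukocytes and other non-epithelial cells are therefore no direct measure of host cells. Whether their probe sets read mouse RNA was not tested.

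**Figure D1:**
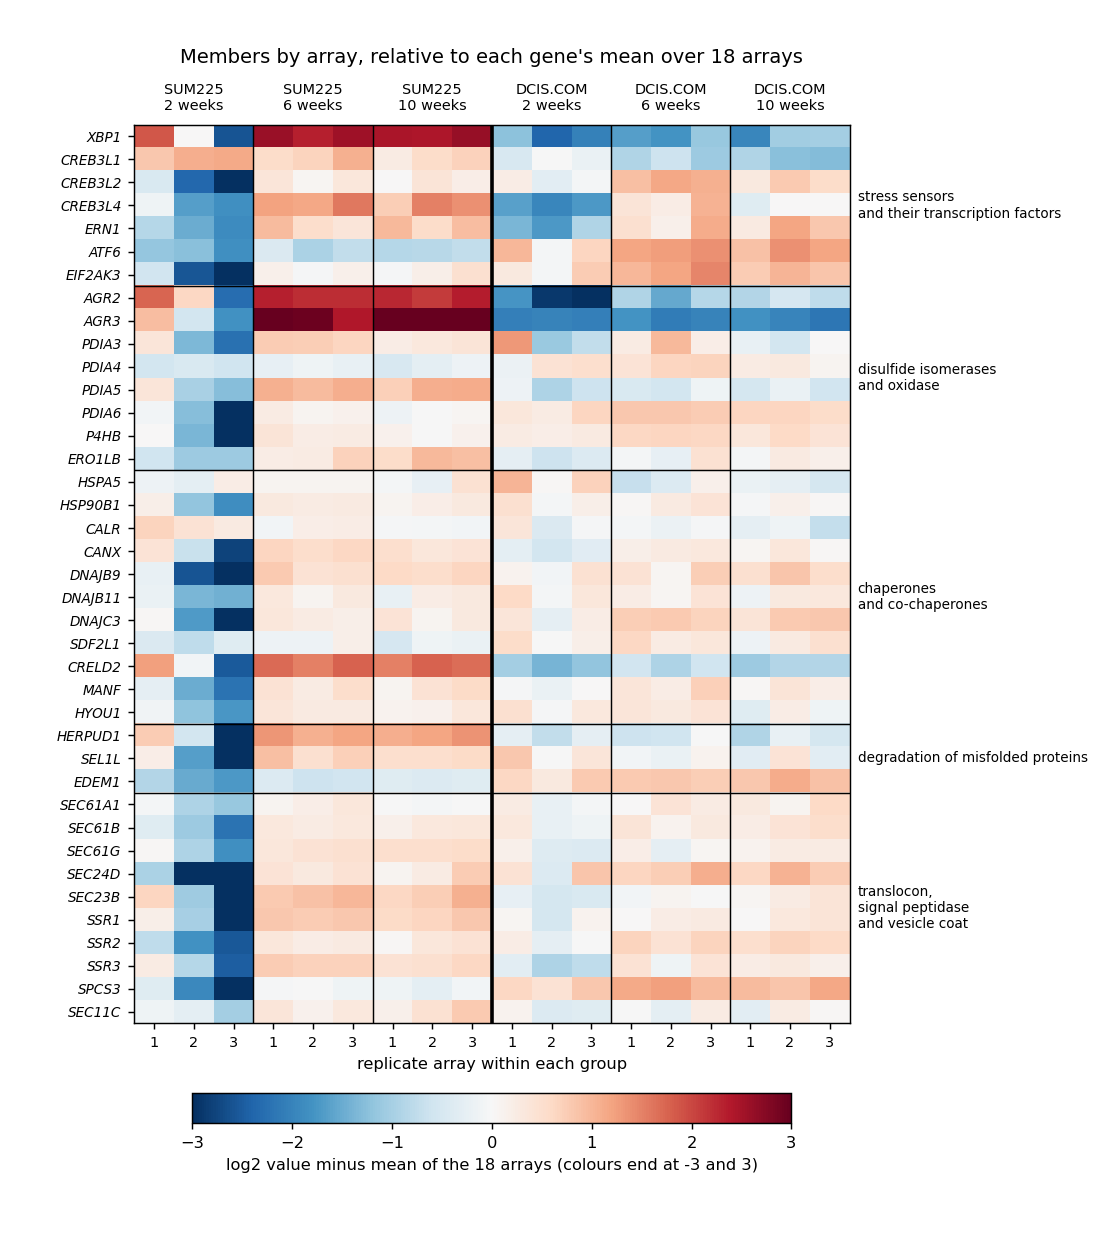
Each of the 39 genes (rows, grouped by role) on each of the 18 arrays (columns, SUM225 at 2, 6 and 10 weeks and then DCIS.COM at 2, 6 and 10 weeks), as the log2 value minus the gene's mean over all arrays. XBP1, AGR2, AGR3 and CRELD2 are red in later SUM225 arrays and blue in DCIS.COM arrays, and most rows turn blue in replicates 2 and 3 of the 2-week SUM225 group.

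The lines were compared first at 6 and 10 weeks, when replicates were close. XBP1, AGR2, AGR3, CRELD2, HERPUD1, CREB3L1 and PDIA5 were higher in SUM225 at both times, whereas ATF6, EIF2AK3 and EDEM1 were lower, and ERN1 was not called. At 6 weeks 14 of 39 genes were higher in SUM225 and 11 lower, against 19.7% higher and 17.2% lower of all named genes (limma, adjusted p under 0.05). At 10 weeks 11 were higher and 6 lower, against 16.4% and 15.9%. The median difference was 0.16 at 6 weeks and 0.27 at 10 weeks, beside 0.02 and -0.01 for all named genes, and single genes spread from -1.97 to 4.90 at 6 weeks. The 2 times share no arrays but come from the same 2 cell lines. Of the members 9 were higher at both and 6 lower at both, with 0 called in opposite directions. These counts are given without the share of all named genes and do not set the members apart from other genes.

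XBP1, the transcription factor activated by ERN1, read 12.80, 12.54 and 12.76 in SUM225 at 6 weeks, against 8.55, 8.42 and 9.08 in DCIS.COM. At 10 weeks it read 12.66, 12.63 and 12.82 in SUM225, against 8.25, 9.16 and 9.18 in DCIS.COM. The groups lay far apart at both times. The difference was 4.02 ± 0.17 (log2, standard error) or 16.2-fold at 6 weeks (adjusted p = 2.2e-07) and 3.84 ± 0.24 or 14.4-fold at 10 weeks (adjusted p = 3.7e-06). ERN1 itself read 8.66, 8.25 and 8.07 in SUM225 at 6 weeks, against 8.19, 7.86 and 8.82 in DCIS.COM, and the groups overlapped. Its difference was 0.04 ± 0.24 (adjusted p = 0.94), and at 10 weeks 0.07 ± 0.23 (adjusted p = 0.89).

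The other sensors ran opposite to XBP1. ATF6, which is cut in the Golgi to release a transcription factor, read 7.47, 6.94 and 7.16 in SUM225 at 6 weeks, against 9.08, 9.14 and 9.26 in DCIS.COM. At 10 weeks it read 7.04, 7.06 and 7.15 in SUM225, against 8.77, 9.27 and 9.08 in DCIS.COM, so that every SUM225 array lay below every DCIS.COM array. The difference was -1.97 ± 0.14 at 6 weeks (adjusted p = 6.8e-06) and -1.96 ± 0.15 at 10 weeks (adjusted p = 1.5e-05), and both other ATF6 probe sets were lower in SUM225 as well, by -2.17 and -1.97 at 6 weeks. EIF2AK3, the kinase that slows translation under stress, read 9.04, 8.87 and 9.06 in SUM225 at 6 weeks, against 9.89, 10.09 and 10.37 in DCIS.COM. It read 8.86, 9.08 and 9.38 in SUM225 at 10 weeks, against 9.67, 9.92 and 9.74 in DCIS.COM. Its differences were -1.12 ± 0.14 (adjusted p = 0.00021) and -0.67 ± 0.16 (adjusted p = 0.012), and neither was called when all 18 arrays shared 1 estimate of the spread (adjusted p = 0.37 and 0.69). Of the CREB3-like factors, which are released from the ER membrane much as ATF6 is, CREB3L1 was higher in SUM225 by 1.63 and 1.65 and CREB3L4 by 0.76 and 1.32, whereas CREB3L2 was lower by -0.77 at 6 weeks, where its other probe sets stood at 0.05 and 0.11, and by -0.35, not past the threshold, at 10 weeks. The second, dimmer CREB3L1 probe set read 5.29, 5.61 and 5.59 in SUM225 at 6 weeks, against 5.52, 5.52 and 5.22 in DCIS.COM. It read 5.57, 5.54 and 5.38 at 10 weeks, against 5.46, 5.33 and 5.31, so the lines overlapped at both times.

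The anterior gradient proteins AGR2 and AGR3 belong to the disulfide isomerase family, and AGR2 is known for its part in mucin folding. Together with XBP1 their genes, both on chromosome 7, had the largest differences of the 39 on this scale. AGR3 read 8.57, 8.06 and 7.52 in SUM225 at 6 weeks, against 3.33, 3.02 and 3.10 in DCIS.COM. At 10 weeks it read 8.87, 8.72 and 8.36 in SUM225, against 3.29, 3.14 and 2.94 in DCIS.COM. In DCIS.COM its probe set was among the dimmest at every time, brighter than only 7.58% to 12.7% of the probe sets on the same array. The difference was 4.90 ± 0.23 at 6 weeks (adjusted p = 3.8e-07) and 5.53 ± 0.17 at 10 weeks (adjusted p = 6.3e-08). With no detection call and DCIS.COM values this low, the size of these differences is uncertain. AGR2 read 12.08, 11.95 and 11.94 in SUM225 at 6 weeks, against 8.83, 8.19 and 8.89 in DCIS.COM. It read 12.01, 11.84 and 12.10 in SUM225 at 10 weeks, against 8.85, 9.24 and 8.97 in DCIS.COM, again without overlap. The difference was 3.35 ± 0.18 or 10.2-fold (adjusted p = 9e-07) and 2.96 ± 0.15 or 7.8-fold (adjusted p = 9.9e-07). A second AGR2 probe set was higher too, by 2.84 and 2.23.

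**Figure D2:**
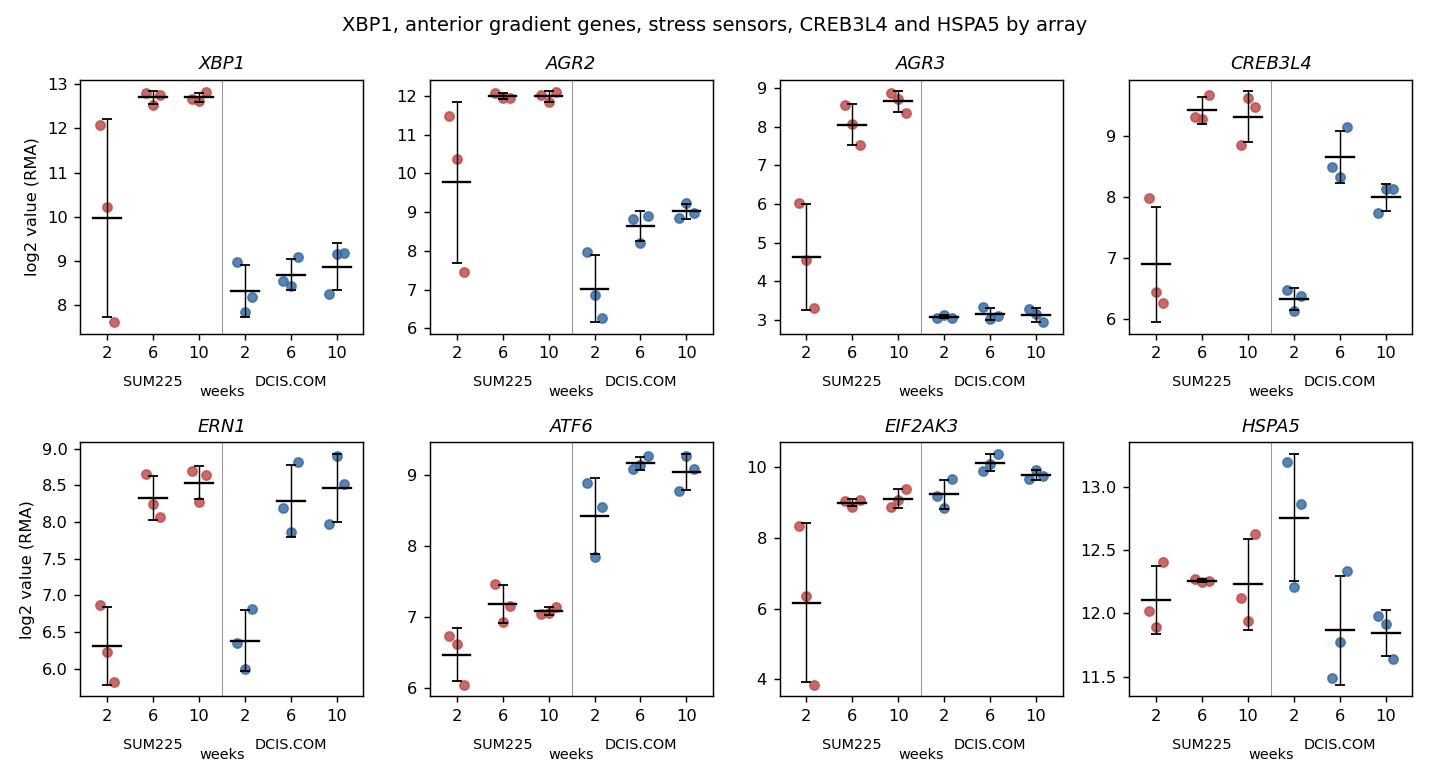
Log2 values of 8 genes on each array (points), with the group mean (horizontal line) and SD (bars, n = 3), for SUM225 (red, left) and DCIS.COM (blue, right) at 2, 6 and 10 weeks. XBP1, AGR2 and AGR3 are higher in SUM225 at 6 and 10 weeks, ATF6 and EIF2AK3 are lower there, ERN1 and CREB3L4 are higher at 6 than at 2 weeks in both lines, and the 2-week SUM225 points are widely spread for XBP1, AGR2, AGR3 and EIF2AK3.

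Among the common isomerases the directions were mixed. PDIA5 was higher in SUM225 by 1.41 at both times, whereas PDIA4, by -0.76 and -0.51, and PDIA6, by -0.64 and -0.65, were lower. The second PDIA4 probe set was higher in SUM225, by 0.40 at 6 weeks (adjusted p = 0.014) and 0.23 at 10 weeks (adjusted p = 0.22), so PDIA4 has no single direction. P4HB, a major isomerase and a subunit of collagen prolyl hydroxylase, was lower by -0.34 at 6 weeks and by -0.37, not past the threshold, at 10 weeks. ERO1LB, an oxidase that recharges the isomerases and is now named ERO1B, was higher at 10 weeks by 0.69 ± 0.16 (adjusted p = 0.0096), and PDIA3, the isomerase that works with CALR and CANX, by 0.56 ± 0.16 (adjusted p = 0.028). Both other PDIA3 probe sets were lower at 10 weeks, by -0.62 (adjusted p = 0.0049) and -0.58 (adjusted p = 0.0084), and the mean of the 3 differed by -0.21, so PDIA3 has no single direction either.

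Of the 11 chaperones and co-chaperones 4 were called at 6 weeks and 1 at 10 weeks. CRELD2, a stress-induced ER protein, had the largest difference. It read 12.72, 12.52 and 12.78 in SUM225 at 6 weeks, against 10.44, 10.09 and 10.43 in DCIS.COM. It read 12.52, 12.79 and 12.69 in SUM225 at 10 weeks, against 9.94, 10.13 and 10.13 in DCIS.COM, and no array of either line reached the other's range. The difference was 2.36 ± 0.13 or 5.12-fold (adjusted p = 1.3e-06) and 2.60 ± 0.13 or 6.06-fold (adjusted p = 1.2e-06). HSPA5 (BiP), the master chaperone of the ER, read 12.27, 12.25 and 12.26 in SUM225 at 6 weeks, against 11.49, 11.77 and 12.34 in DCIS.COM. With a difference of 0.39 ± 0.19 (adjusted p = 0.17) the groups overlapped, and at 10 weeks the difference was 0.38 ± 0.19 (adjusted p = 0.2).

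A second, dimmer HSPA5 probe set was lower in SUM225. It read 7.26, 7.06 and 6.92 in SUM225 at 6 weeks, against 9.71, 9.62 and 10.10 in DCIS.COM, a difference of -2.73 ± 0.15 (adjusted p = 1.2e-06). At 10 weeks it read 6.84, 6.95 and 7.04 in SUM225, against 8.93, 9.37 and 8.74 in DCIS.COM, a difference of -2.07 ± 0.17 (adjusted p = 2.5e-05). The mean of both sets was lower in SUM225, by -1.17 at 6 weeks (adjusted p = 0.00024) and -0.84 at 10 weeks. The files do not say which part of the transcript each probe set reads. For the other chaperones the brightest probe sets differed little at 6 weeks, with HSP90B1 at 0.03, DNAJB11 at 0.00, MANF at -0.03 and HYOU1 at -0.05, none past the threshold. Dimmer HSP90B1 probe sets were higher in SUM225, one by 1.03 at 6 weeks (adjusted p = 0.0039) and 1.08 at 10 weeks (adjusted p = 0.0057) and one by 0.60 and 0.55. CANX was higher by 0.34 and DNAJC3 and SDF2L1 lower by -0.48 and -0.45, and none of these 3 was called at 10 weeks. One other CANX probe set was lower at 6 weeks, by -0.59, and one other DNAJC3 probe set higher, by 0.45, both past the threshold.

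In ER-associated degradation, which returns misfolded proteins to the cytosol, the members parted. HERPUD1, a membrane scaffold of the degradation complex, read 12.94, 12.69 and 12.80 in SUM225 at 6 weeks, against 11.01, 11.03 and 11.62 in DCIS.COM, a difference of 1.59 ± 0.17 (adjusted p = 7.7e-05), and the difference at 10 weeks was 1.76 ± 0.18 (adjusted p = 9e-05). EDEM1, which directs glycoproteins to degradation, read 7.76, 7.53 and 7.59 in SUM225, against 8.95, 8.96 and 8.91 in DCIS.COM, a difference of -1.31 ± 0.11 (adjusted p = 1.5e-05), and of -1.30 ± 0.13 at 10 weeks (adjusted p = 8e-05). SEL1L, the adaptor of the same complex as HERPUD1, was higher by 0.76 at 6 weeks and by 0.61, not past the threshold, at 10 weeks.

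Differences were smaller in the translocon, the signal peptidase and the COPII coat. Of these 10 genes, SEC61G, SSR1, SSR3 and the coat subunit SEC23B were higher in SUM225 at 6 weeks, by 0.42 to 0.89, and SEC24D, the cargo-binding coat subunit, and SPCS3, a signal peptidase subunit, were lower by -0.45 and -1.16. At 10 weeks SEC23B, by 0.57, and SPCS3, by -1.15, were past the threshold. For SPCS3 this rests on 1 probe set, since the other 2 stood higher in SUM225, at 0.42 and 0.30 at 6 weeks and 0.40 and 0.21 at 10 weeks, none past the threshold. For SSR3 the other 2 stood at -0.24 and -0.07 at 6 weeks.

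**Figure D3:**
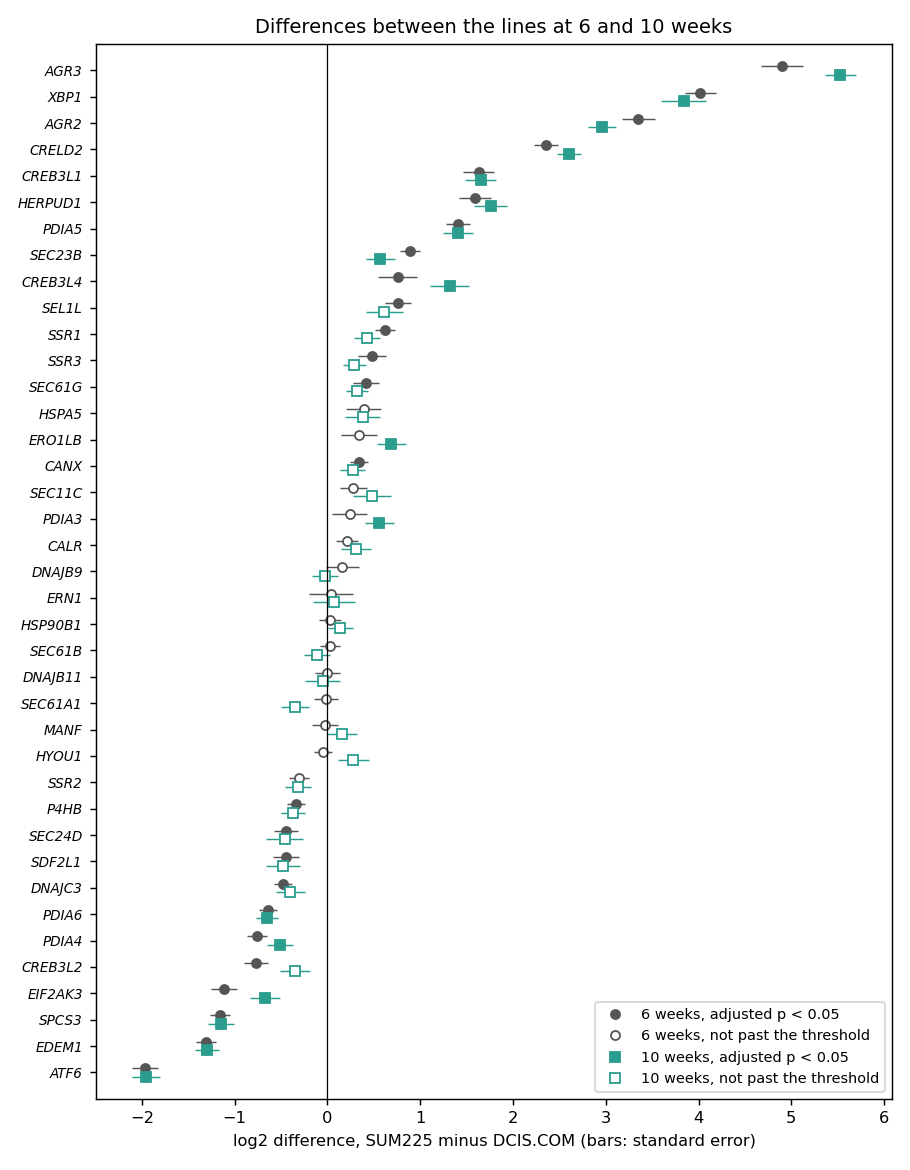
Log2 difference of SUM225 minus DCIS.COM for each of 39 genes at 6 weeks (circles) and 10 weeks (squares), with standard errors (bars). Filled points passed an adjusted p under 0.05, and the order runs from AGR3, at 4.90 and 5.53, to ATF6, at -1.97 and -1.96.

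Of the 25 genes called at 6 weeks 18 were called in every run without 1 array, and CREB3L4, CANX, P4HB, SDF2L1, SEC24D, SEC61G and SSR3 were not. Of the 17 called at 10 weeks 14 were, and PDIA3, PDIA4 and SEC23B were not. XBP1, AGR2, AGR3, PDIA5, CRELD2, EDEM1, CREB3L1 and ATF6 were called at both times under every alternative that was run. Epithelial markers differed in both directions between the lines at 6 weeks, with 4 of 15 higher and 6 lower in SUM225. Of 15 leukocyte markers 1 was higher and 1 lower, against 19.7% higher and 17.2% lower of all named genes.

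The change between 2 and 6 weeks asks what accompanied the formation of the lesions. Gene names came from probe sets that the study had called for this same change in either line. Counts and shares at 6 against 2 weeks carry that selection in both lines and are no independent test of the change. In DCIS.COM xenografts, most genes of the stress sensors and their factors were called higher and the main chaperone lower, by the brightest probe set of each. CREB3L4, ERN1, AGR2, CREB3L2, SSR3 and EIF2AK3 had the largest rises, and HSPA5 and CREB3L1 fell. Of 39 genes, 14 were higher at 6 weeks and 2 lower, against 22.5% higher and 20% lower of all named genes, and the median change was 0.36, beside -0.14 for all named genes. After a second quantile normalization 5 were higher and 4 lower, and with arrays centered on their medians, which moved the median of all probe sets to 0.01, 16 were higher and 0 lower.

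CREB3L4 read 8.49, 8.33 and 9.14 in DCIS.COM at 6 weeks, against 6.48, 6.13 and 6.38 at 2 weeks. All 6-week arrays lay well above all 2-week arrays, and the rise was 2.33 ± 0.22 or 5.02-fold (adjusted p = 0.0016). ERN1 read 8.19, 7.86 and 8.82 at 6 weeks, against 6.35, 5.99 and 6.81 at 2 weeks, again without overlap, a rise of 1.9 ± 0.27 (adjusted p = 0.0046). Its second, dimmer probe set fell by 0.62 ± 0.17 (adjusted p = 0.026), so the direction for ERN1 rests on the brighter one. CREB3L2 read 9.56, 9.82 and 9.73 at 6 weeks, against 8.90, 8.35 and 8.61 at 2 weeks, a rise of 1.08 ± 0.17 (adjusted p = 0.006). Another of its probe sets rose by 0.94 and the dimmest fell by 0.53.

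EIF2AK3 read 9.89, 10.09 and 10.37 at 6 weeks, against 9.18, 8.84 and 9.66 at 2 weeks, a rise of 0.89 ± 0.22 (adjusted p = 0.021), with its second probe set at -0.13. ATF6 read 9.08, 9.14 and 9.26 at 6 weeks, against 8.88, 7.84 and 8.55 at 2 weeks, and although the groups did not overlap the highest 2-week array came close, with a rise of 0.74 ± 0.24 (adjusted p = 0.046). XBP1 read 8.55, 8.42 and 9.08 at 6 weeks, against 8.97, 7.83 and 8.17 at 2 weeks, with overlapping groups and a change of 0.36 ± 0.29 (adjusted p = 0.33). CREB3L1 read 6.33, 6.61 and 6.16 at 6 weeks, against 6.75, 7.23 and 7.03 at 2 weeks, a fall by 0.64 ± 0.18 (adjusted p = 0.029). Thus 5 of the 7 genes of the sensor group were called higher and 1 lower, against 22.5% and 20% of all named genes. XBP1 did not pass the test. Only the calls of CREB3L4 and ERN1 were kept under every alternative that was run.

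AGR2 read 8.83, 8.19 and 8.89 at 6 weeks, against 7.96, 6.85 and 6.26 at 2 weeks, a rise of 1.62 ± 0.38 or 3.06-fold (adjusted p = 0.018), while its second probe set had a change of 0.36 ± 0.21 (adjusted p = 0.19). AGR3 stayed among the dimmest probe sets, with 3.33, 3.02 and 3.10 at 6 weeks, against 3.06, 3.12 and 3.06 at 2 weeks. Of the other 6 isomerase and oxidase genes only P4HB was called, with 0.38 ± 0.13 (adjusted p = 0.047). SSR3, a subunit of the translocon-associated complex, rose by 0.90 ± 0.21 (adjusted p = 0.018), and SSR2 and SPCS3 rose by 0.61 and 0.48. None of the 3 degradation genes was called.

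HSPA5 read 11.49, 11.77 and 12.34 at 6 weeks, against 13.20, 12.21 and 12.87 at 2 weeks. The groups overlapped at the highest 6-week and the lowest 2-week array, and the fall by 0.89 ± 0.28 was called (adjusted p = 0.041) but not after centering the arrays (-0.73, adjusted p = 0.12). The second HSPA5 probe set changed by -0.06. Other chaperones rose, with CANX, the lectin chaperone of glycoproteins, at 0.66, DNAJC3 at 0.63 and CRELD2 and MANF at 0.50 each, and the remaining 6 were not called. Epithelial markers were higher at 6 weeks for 5 of 15 genes and lower for 0, against 22.5% and 20% of all named genes. Leukocyte markers were higher for 1 of 15 and lower for 9, and endothelial higher for 1 of 10 and lower for 6. Plasma cell markers were lower for 4 of 10, fibroblast for 3 of 9, adipocyte for 4 of 7 and erythroid for 4 of 6, with 0 higher. The lists other than the epithelial one are no direct measure of mouse host cells. The part of these markers in the changes was not tested.

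Single arrays decided many of these calls. Without 1 array the number of called genes ran from 3, without replicate 3 at 6 weeks, to 20, without replicate 1 at 2 weeks, and 5, 5, 5 and 9 were called without 2-week replicates 2 and 3 and 6-week replicates 1 and 2. CREB3L2, CREB3L4 and ERN1 were called in all 6 of these runs. At 10 against 2 weeks 8 genes were higher and 2 lower, against 21.1% and 15.9% of all named genes, or 3 higher and 7 lower after a second quantile normalization. ERN1 was higher at 10 weeks by 2.08 ± 0.27, AGR2 by 2.00 ± 0.36 and CREB3L4 by 1.66 ± 0.18 (adjusted p = 0.0047, 0.01 and 0.0026), all 3 in every run without 1 array, and HSPA5 and CREB3L1 were each lower by -0.91. The number called ran from 3, without 2-week replicate 3 or 10-week replicates 2 or 3, to 17, without 2-week replicate 1, with 4 called without 2-week replicate 2.

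In SUM225 xenografts the list was higher at 6 than at 2 weeks, and replicates 2 and 3 of the 2-week group were low for most genes. AGR3, SEC24D, DNAJB9, CREB3L4, CREB3L2 and ERN1 had large rises that passed the test. At 6 weeks 18 of 39 genes were higher and 0 lower, against 21.7% higher and 26.5% lower of all named genes. The median change was 1.78, beside -0.38 for all named genes, and in 36 of 39 genes every 6-week array lay above every 2-week array, as in 33.2% of all named genes. Most members were bright, and all named genes were not matched to them in brightness. SEC61A1 was brighter than 96.5% to 97.1% of probe sets on the 2-week arrays and 96.0% to 96.9% on the 6-week arrays. For DNAJB9 these shares were 35.3% to 94.4% and 95.7% to 96.4%. Whether the rise was particular to these genes was not tested. Without 2-week replicate 1 the number called was 35, and without any of the other 5 arrays it was 0. After a second quantile normalization it was 0 too, and SEC61A1 stood at -0.12, against 0.91 before. These counts are given without the share of all genes called in the same runs. With replicate 1 as the only 2-week array, 14 genes were higher and 0 lower, against 14.4% and 8.37% of all named genes, and the median change was 0.43, beside -0.09 for all probe sets.

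The spread at 2 weeks was seen gene by gene. XBP1 read 12.80, 12.54 and 12.76 in SUM225 at 6 weeks, against 12.08, 10.23 and 7.61 at 2 weeks, and EIF2AK3 read 9.04, 8.87 and 9.06, against 8.32, 6.34 and 3.84. Both were lowest in replicate 3, as EPCAM was, and with changes of 2.73 ± 0.96 (adjusted p = 0.054) and 2.82 ± 0.96 (adjusted p = 0.051) neither passed the test. Not all members followed. HSPA5 read 12.27, 12.25 and 12.26 at 6 weeks, against 12.02, 11.89 and 12.41 at 2 weeks, with a change of 0.15 ± 0.22 (adjusted p = 0.55), although its second probe set was higher at 6 weeks by 1.04 ± 0.24 (adjusted p = 0.038). CALR, a calcium-binding chaperone, read 9.09, 9.38 and 9.40 at 6 weeks, against 9.84, 9.6 and 9.44 at 2 weeks, and CREB3L1 read 7.78, 7.90 and 8.31, against 8.06, 8.33 and 8.37. For CALR another probe set was higher at 6 weeks, by 0.67 (adjusted p = 0.044), and for CREB3L1 another was lower, by -0.91 (adjusted p = 0.042). In replicate 3, the array with the lowest EPCAM, 35 of 39 genes lay below all 6-week and 10-week arrays, and HSPA5, CALR, SDF2L1 and CREB3L1 did not.

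The changes that passed the test were read both ways. AGR3 read 8.57, 8.06 and 7.52 at 6 weeks, against 6.03, 4.56 and 3.30 at 2 weeks, a rise of 3.42 ± 0.64 (adjusted p = 0.038), and of 2.02 with replicate 1 alone. SEC24D read 7.90, 7.80 and 7.93, against 6.55, 4.34 and 3.60, a rise of 3.05 ± 0.67 (adjusted p = 0.038), and of 1.33 with replicate 1 alone, with its second probe set at -0.32. DNAJB9, a co-chaperone of HSPA5 and a known XBP1 target, read 10.11, 9.76 and 9.80, against 9.11, 6.74 and 5.16, a rise of 2.89 ± 0.86 (adjusted p = 0.042), and of 0.78 with replicate 1 alone. For these 3 genes replicate 1 was the highest 2-week array and still lay below every 6-week array.

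CREB3L4 read 9.30, 9.27 and 9.67 at 6 weeks, against 7.98, 6.44 and 6.26 at 2 weeks, a rise of 2.52 ± 0.45 (adjusted p = 0.037), and of 1.44 with replicate 1 alone. ERN1 read 8.66, 8.25 and 8.07, against 6.87, 6.23 and 5.82, a rise of 2.02 ± 0.31 (adjusted p = 0.033), and of 1.46 with replicate 1 alone. As in DCIS.COM its second probe set ran the other way, at -0.98 ± 0.36 (adjusted p = 0.058), and at 10 against 2 weeks at -1.10 (adjusted p = 0.041). CREB3L2 rose by 2.25 ± 0.62 (adjusted p = 0.039), or by 0.70 with replicate 1 alone, with its dimmest probe set falling by 1.03. XBP1 and EIF2AK3 lay 0.62 and 0.67 above replicate 1 at 6 weeks. By role, 3 of 7 sensor genes, 4 of 8 isomerase genes, 4 of 11 chaperones, 2 of 3 degradation genes and 5 of 10 translocon and coat genes were higher, and 0 were lower. Epithelial markers were higher at 6 weeks for 4 of 15 genes and lower for 0, against 21.7% and 26.5% of all named genes. Leukocyte markers were lower for 10 of 15, plasma cell for 6 of 10, fibroblast for 4 of 9 and endothelial for 5 of 10. Adipocyte markers were lower for 2 of 7 and erythroid for 5 of 6, and 0 markers of these 6 lists were higher. The lists other than the epithelial one are no direct measure of mouse host cells. The part of these markers in the rise was not tested.

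**Figure D4:**
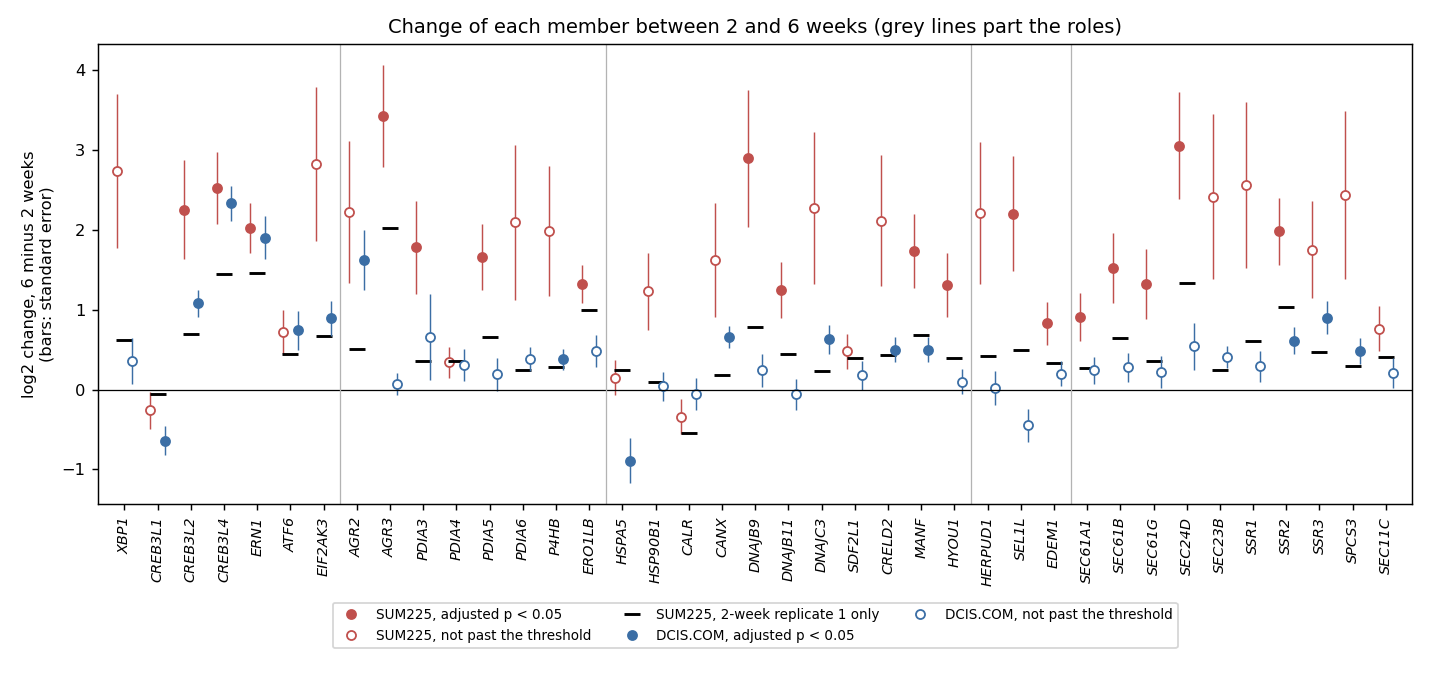
Log2 change from 2 to 6 weeks of each gene in SUM225 (red) and DCIS.COM (blue), with standard errors (bars), filled where the adjusted p was under 0.05. Black dashes give the SUM225 change with replicate 1 as the only 2-week array, and they lie below most red points, with AGR3 at 2.02 against 3.42, while ERN1 and CREB3L4 are well above 0 in both lines.

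At 10 against 2 weeks in SUM225, 19 genes were higher and 0 lower, against 25.1% and 33.6% of all named genes. These counts reuse the 2-week arrays that entered the naming of probe sets and are no independent test. AGR3 was higher by 4.02 ± 0.61 (adjusted p = 0.015), SEC24D by 3.03 ± 0.68 (adjusted p = 0.025), EIF2AK3 by 2.94 ± 0.96 (adjusted p = 0.041), DNAJB9 by 2.91 ± 0.85 (adjusted p = 0.033), XBP1 by 2.73 ± 0.96 (adjusted p = 0.048) and ERN1 by 2.23 ± 0.30 (adjusted p = 0.014). The second EIF2AK3 probe set stood at -0.74 (adjusted p = 0.057). The number called was 36 without 2-week replicate 1 and 7, 1, 0, 0 and 0 without each of the other arrays, 2-week replicate 3 and 10-week replicate 1 giving the 7 and the 1. With replicate 1 as the only 2-week array, 11 were higher and CALR was lower, against 16% and 14% of all named genes. After a second quantile normalization 4 were higher and 2 lower.

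The rises of both lines were set side by side. MANF, SSR2, CREB3L2, CREB3L4 and ERN1 were higher at 6 weeks in both, which is 27.8% of the 18 risen in SUM225 and 35.7% of the 14 risen in DCIS.COM. Of all named genes that rose, 2416 did so in both lines, 58.2% of those of SUM225 and 56.0% of those of DCIS.COM, so the members' overlap was no larger than that of other genes. Among the members 0 genes were called in opposite directions, a count given without the share of all named genes. The difference between the lines' changes passed an adjusted p under 0.05 for 0 of 39 genes. Of all named genes 0.7% had a larger and 0.538% a smaller change in SUM225 at that threshold. In limma 12 of 39 had an unadjusted p under 0.05, a count given without the share of all genes. AGR3 came nearest, with a change larger in SUM225 by 3.35 ± 0.72 (adjusted p = 0.061), and ERN1 and CREB3L4 had differences of 0.11 ± 0.45 and 0.20 ± 0.54. Without 2-week SUM225 replicate 1 the count by adjusted p was 28 of 39, again given without the share of all genes.

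At 2 weeks the lines themselves could be compared only across this spread. EDEM1 was lower in SUM225 by -1.94 ± 0.29 (adjusted p = 0.023) and ATF6 by -1.95 ± 0.34 (adjusted p = 0.037), and 0 of 39 genes were higher, against 0.0784% higher and 2.37% lower of all named genes, and with centered arrays 1 was higher and 1 lower. With replicate 1 as the only SUM225 array, EDEM1 was lower and XBP1, AGR2, AGR3, CRELD2 and CREB3L4 were higher, against 3.62% higher and 3.05% lower of all named genes, with the spread taken from DCIS.COM alone. Without 1 array the number called ran from 0, without SUM225 replicate 2 or DCIS.COM replicates 1 or 3, to 23, without SUM225 replicate 1, with 1 called without DCIS.COM replicate 2.

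Between 6 and 10 weeks no member passed the test in either line. In SUM225 3 of 39 and in DCIS.COM 5 of 39 had an unadjusted p under 0.05 in limma, counts given without the share of all genes. Under every alternative that was run 0 were called. The share called of all named genes, in either direction, was 0.00522% in SUM225 and 0.0157% in DCIS.COM, and 0 members differed in this change between the lines, against 0.0209%. In DCIS.COM CREB3L4 stood at 7.73, 8.12 and 8.12 at 10 weeks, against 8.49, 8.33 and 9.14 at 6 weeks (-0.66 ± 0.22), and in SUM225 AGR3 stood at 8.87, 8.72 and 8.36 at 10 weeks, against 8.57, 8.06 and 7.52 at 6 weeks (0.60 ± 0.24).

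Other genes of the same pathway were counted beside the list. Of 118 such genes, chosen for their role with earlier results of these data known, 113 were measured. In SUM225 against DCIS.COM at 6 weeks 35 were higher and 22 lower, against 19.7% and 17.2% of all named genes. The median difference was 0.06. At 10 weeks 24 were higher and 20 lower, against 16.4% and 15.9% of all named genes. ERLIN2, which hands proteins to degradation, was higher in SUM225 by 2.97 ± 0.10 at 6 weeks and ERP27, an isomerase-like protein, by 2.85 ± 0.11, whereas COPG2, a subunit of the COPI coat that returns proteins to the ER, was lower by -1.63 ± 0.15 and the COPII subunit SEC23A by -1.53 ± 0.12. All 4 were called at 10 weeks too, at 3.07, 2.74, -2.05 and -1.56. Between 2 and 6 weeks 39 of the 113 were higher and 3 lower in DCIS.COM, against 22.5% and 20% of all named genes. SAR1B, the GTPase that starts COPII budding, stood at 1.27 ± 0.17 and the retrieval receptor KDELR3 at 1.26 ± 0.17. In SUM225 41 were higher and 6 lower, against 21.7% and 26.5% of all named genes. Of 17 COPII genes 10 were higher and 0 lower there.

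Genes with an ER stress element were called in both directions in the 2 comparisons given here. In SUM225 against DCIS.COM at 6 weeks 4 of the 11 with an ERSE or ERSE-II were higher and 2 lower, with differences from -0.64 to 4.02. Of the 26 others with a window 10 were higher and 8 lower, against 19.7% higher and 17.2% lower of all named genes. In DCIS.COM at 6 against 2 weeks 2 of the 11 were higher and 1 lower, with a median change of 0.18. Of the 26 others 12 were higher and 1 lower, with a median of 0.34, against 22.5% higher and 20% lower of all named genes. The 11 include XBP1, CRELD2 and HERPUD1, higher in SUM225 at both times, HSPA5, CALR and HSP90B1, not called at either, and PDIA6, lower at both.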

How the data were processed

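Cells were sorted for EpCAM and RNA was hybridized to 18 Affymetrix HG-U133 Plus 2.0 arrays. The authors' deposited values are log2 values per probe set, for which the labels name RMA and Partek without versions. The genome build and annotation version are not given in the sources used here. Gene names were taken from the authors' deposited tables of all called genes, whose fold changes and q-values were not used, so probe sets that the study did not call are unnamed. Of 54675 probe sets, 62 controls were left out.

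Each comparison was a limma fit (limma 3.58.1, R 4.3.3) of its own arrays, with Benjamini-Hochberg adjustment over 54613 probe sets and a threshold of 0.05, and the difference between lines as an interaction. The fits were tested on simulated data. Tables and plots used Python 3.11.15, pandas 2.3.3, numpy 2.4.6 and matplotlib 3.10.9. Alternatives were centering, a second quantile normalization, a mean of at least 5, 1 fit of all 18 arrays, trended robust moderation, a replicate block, the mean of a gene's probe sets, each array left out, only replicate 1 of 2-week SUM225, and SAM with 20 permutations. The members and lists were chosen with earlier results of these data known. Full values were given for XBP1, AGR2, AGR3, HSPA5, ERN1, ATF6, EIF2AK3 and up to 5 called members with the largest changes per comparison, and of other lists up to 3. The labels number the replicates, and each replicate pools other mice, while the number of arrays limits the precision.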

Additional observations from a re-analysis of the deposited data

How the results depend on the processing

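With 3 arrays per group, RMA values without detection calls and names given only to probe sets that the study called, low levels and unchanged probe sets are poorly covered. Fitting all 18 arrays together, in which every comparison carries the spread of the 2-week SUM225 arrays, left 9 members called between the lines at 6 weeks and 11 at 10 weeks, 4 for DCIS.COM at 6 against 2 weeks and 5 at 10 against 2 weeks, and gave 35 for SUM225 at 6 against 2 weeks, 36 at 10 against 2 weeks, 23 between the lines at 2 weeks and 1 for the difference in change. A second quantile normalization gave 9 for DCIS.COM at 6 against 2 weeks and, for SUM225, 0 at 6 against 2 weeks and 6 at 10 against 2 weeks, and the cause was not tested. SAM called 36 in SUM225 at 6 against 2 weeks. Counts in this section and in the runs without 1 array are given without the share of all genes called in the same run. They show how the calls moved with the processing and not whether members differed from other genes. Using only replicate 1 of 2-week SUM225 gave 12 at 10 against 2 weeks, 6 between the lines at 2 weeks and 1 for the difference in change, which was also 1 with trended moderation and with the mean of a gene's probe sets.

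Same-numbered replicates did not deviate together throughout, with correlations of their deviations from -0.516 to 0.632 and no comparison with all 3 above 0.1. Some did, with 0.632, 0.377 and 0.048 between the lines at 2 weeks and 0.32, 0.352 and 0.02 for SUM225 at 6 against 2 weeks. The numbers were not treated as pairs, and these correlations do not settle whether they should be. With the replicate number as a block, 5 members were called for DCIS.COM at 10 against 2 weeks, 32 for SUM225 at 6 against 2 weeks, 8 between the lines at 2 weeks and 1 for the difference in change.

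Leaving out each array in turn gave 3 to 20 called members for DCIS.COM at 6 against 2 weeks and 3 to 17 at 10 against 2 weeks, 0 to 35 and 0 to 36 for SUM225, 0 to 23, 19 to 23 and 14 to 19 between the lines at 2, 6 and 10 weeks, and 0 to 28 for the difference in change from 2 to 6 weeks. Of the members called, 3 turned their sign under an alternative. With the mean of a gene's probe sets PDIA3 stood at -0.21 in SUM225 against DCIS.COM at 10 weeks, and after a second quantile normalization SEC61A1 stood at -0.12 in SUM225 at 6 against 2 weeks and SEC11C at -0.02 at 10 against 2 weeks. HSPA5, not called between the lines, stood at -1.17 and -0.84 at 6 and 10 weeks with the mean of its probe sets. Of called members with other probe sets, 6 of 17 had one of opposite sign between the lines at 6 weeks and 3 of 11 at 10 weeks.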
